A study of Mus musculus with 22 samples.

Results

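The 10 genes described here encode the transcriptional end of the Hippo pathway and several of its best known targets. They were chosen by gene symbol from the count table, 10 of 29367 genes in all: the coactivators Yap1 and Wwtr1 (the gene for TAZ), the DNA-binding partners Tead1, Tead2, Tead3 and Tead4, and the target genes Ctgf (also Ccn2), Cyr61 (also Ccn1), Ankrd1 and Amotl2. In the Hippo pathway the kinases MST1 and MST2 (genes Stk4 and Stk3) activate LATS1 and LATS2, which phosphorylate YAP and TAZ and keep them out of the nucleus. Unphosphorylated YAP and TAZ enter the nucleus, bind TEAD proteins and switch on target genes. Stretch, a stiff matrix and tension in the actin skeleton favour that step, and the pathway is studied as a sensor of mechanical load in many tissues. Astrocytes of the optic nerve head ensheathe the axon bundles at the place where raised eye pressure strains the nerve.

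The data were gene counts from astrocyte ribosomes of mice with raised intraocular pressure. The mice, 3 to 4 months old, carried the RiboTag allele of the strain B6J.129(Cg)-Rpl22tm1.1Psam/SjJ and a GFAP-Cre transgene (line 73.12Mvs/J on a B6.Cg background) and were Rpl22 HA/HA Cre+, so that Cre under the mouse GFAP promoter put an HA tag on the ribosomes of every cell in which the transgene had been active. All animals had microbeads injected into 1 eye, and uninjected animals were not analysed here. The optic nerve head (ONH) and the adjoining myelinated optic nerve proper (ONP) were taken at 7 and 30 days, which gave 4 ONH and 4 ONP libraries at 7 days and 7 ONH and 7 ONP libraries at 30 days, each from the tissue of 4 mice (2 males and 2 females). Libraries held 16292489 to 33307092 counts. Nothing was measured of where YAP or TAZ protein lies in the cell, so the values concern mRNA on tagged ribosomes only.

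All 9 astrocyte markers examined, among them Gfap, Aqp4, Slc1a3 and Sox9, were present, with summed levels of 14500 to 33500 CPM in a library, where CPM is the count scaled to a library of fixed size. RNA of other cell types was present as well. The 7 oligodendrocyte markers summed to 80100 to 105000 CPM in ONP at 7 days, 25000 to 82000 CPM in ONP at 30 days and 13200 to 40400 CPM in the ONH at both times. The 5 fibroblast markers summed to 643 to 1730 CPM in ONH at 7 days, 393 to 867 CPM in ONH at 30 days, 155 to 597 CPM in ONP at 7 days and 80.4 to 591 CPM in ONP at 30 days. No marker of these 3 lists was at 0 in all libraries of a group. In such bulk samples fewer cells of a type and less RNA per cell cannot be told apart. Among the ONH libraries, library 7 at 30 days held pituitary hormone transcripts (Gh at 90.9 CPM, next highest library 3.71 CPM) and library 1 at 7 days had the highest Krt5 level (18.7 CPM, next 8.13 CPM), and the results that change without this pair are given where they occur.

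TEAD proteins recognise the bases GGAATG, which read CATTCC on the other strand. Upstream sequence from RefSeq (the 250 bases before a transcript start, build GRCm38.p6) was at hand for 7 of the 10 genes, and Ctgf, Tead1 and Tead4 had no entry. Of the 7, 6 held GGAATG or CATTCC in at least 1 of their windows, and Tead2 held neither. Among all genes with an entry 14.4% held the motif on either strand, and among all windows 12.6%. The sequences below are shown because they belong to a target gene that changed between regions and to both coactivators. They are written 5′ to 3′ on the strand of the gene, all 3 on the minus strand, with the motif in capitals.
Cyr61, chr3:145649986-145650235: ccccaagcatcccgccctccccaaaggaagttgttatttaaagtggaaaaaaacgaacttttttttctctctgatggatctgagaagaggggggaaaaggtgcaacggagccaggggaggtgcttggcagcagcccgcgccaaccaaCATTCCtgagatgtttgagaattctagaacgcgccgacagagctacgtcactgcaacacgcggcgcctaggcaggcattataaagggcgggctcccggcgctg
Yap1, chr9:8004597-8004829: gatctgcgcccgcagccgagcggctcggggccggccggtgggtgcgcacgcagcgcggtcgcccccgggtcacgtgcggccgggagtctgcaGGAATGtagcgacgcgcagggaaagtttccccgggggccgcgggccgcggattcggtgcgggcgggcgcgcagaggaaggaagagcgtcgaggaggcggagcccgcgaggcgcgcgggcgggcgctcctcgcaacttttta
Wwtr1, chr3:57575911-57576160: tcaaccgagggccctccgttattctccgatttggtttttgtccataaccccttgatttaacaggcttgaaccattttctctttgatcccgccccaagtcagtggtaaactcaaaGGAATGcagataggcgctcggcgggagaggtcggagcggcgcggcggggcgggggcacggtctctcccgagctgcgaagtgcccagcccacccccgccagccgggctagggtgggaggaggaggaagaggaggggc
The Yap1 sequence holds 233 of the 250 bases, because the 17 furthest upstream overlap an annotated exon of another gene. The motif of Cyr61 starts 103 bases before the transcript start, that of Yap1 141 bases and that of Wwtr1 136 bases. Ankrd1 held 2 copies, 210 and 123 bases before the start, and Amotl2 held 1 copy 65 bases before it, in windows that partly or wholly overlap annotated exons of the same gene and are therefore not shown. A run of 6 matching letters describes the sequence only and does not show that a TEAD protein binds there.

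Per kilobase of the longest coding transcript, Ctgf and Cyr61 had the highest mean levels over the 22 libraries, at 54.3 and 45.3 CPM per kilobase. Wwtr1 followed at 13.9, Amotl2 at 7.87 and Yap1 at 6.70 CPM per kilobase. The TEAD genes were lower, Tead1 at 1.76, Tead2 at 0.934, Tead3 at 0.591 and Tead4 at 0.176 CPM per kilobase. Ankrd1, which encodes a muscle ankyrin repeat protein and is a standard reporter of YAP activity in other cells, was nearly silent. It had 0 counts in 17 of 22 libraries and at most 5 counts in any, and 3 counts, the limit that a count of 0 allows, correspond to 0.0901 to 0.184 CPM at these depths. These counts were under the filter on low counts, and Ankrd1 was tested in no comparison.

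Both coactivators were higher in the ONH than in the ONP and showed no detectable change between 7 and 30 days. Yap1 (ENSMUSG00000053110, GRCm38 chr9:7931999-8004596) stood at 41.2, 38.4, 42.2 and 24.5 CPM in the 4 ONH libraries at 7 days, and at 17.2, 12.2, 21.02 and 17.3 CPM in the 4 ONP libraries. At 30 days its lowest, median and highest values were 27.7, 38.0 and 45.4 CPM in the ONH and 13.6, 19.99 and 32.8 CPM in the ONP. The regions did not overlap at 7 days, and at 30 days they overlapped because ONP library 3 was higher than the lowest ONH library. The difference between ONH and ONP was a log2 fold change (log2FC) of 1.13 ± 0.25 (SE) at 7 days (95% CI 0.58 to 1.68, edgeR quasi-likelihood test with Benjamini-Hochberg adjustment, adjusted p = 0.0132) and 0.82 ± 0.17 at 30 days (95% CI 0.46 to 1.18, adjusted p = 0.00125).

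Wwtr1 (ENSMUSG00000027803, chr3:57455649-57575910) stood at 93.9, 84.5, 77.5 and 89.5 CPM in ONH at 7 days and at 58.1, 43.5, 43.1 and 48.7 CPM in ONP. At 30 days the lowest, median and highest values were 66.1, 80.9 and 119.8 CPM in ONH and 33.9, 39.9 and 51.6 CPM in ONP. Every ONH library was above every ONP library at both times. The log2FC of ONH over ONP was 0.86 ± 0.16 at 7 days (95% CI 0.50 to 1.22, adjusted p = 0.00668 with edgeR) and 1.10 ± 0.14 at 30 days (95% CI 0.79 to 1.41, adjusted p = 3.21e-05 with edgeR), and the calls of Wwtr1 and Yap1 held at both times without any single library. Wwtr1 and Yap1 were among 3 of the 9 tested members that edgeR called at 7 days, all 3 higher in the ONH, where 6.34% of all genes tested were called higher in the ONH and 13.2% in either direction. At 30 days 7 of 9 members were called, 6 higher and 1 lower in the ONH, beside 41.8% of all genes tested, 21.8% higher and 20% lower. At 7 days Yap1 and Wwtr1 did not overlap between regions, and at 30 days Wwtr1 and Ctgf did not. Of all genes tested, 9.9% at 7 days and 9.26% at 30 days were higher in the ONH without overlap.

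**Figure D1:**
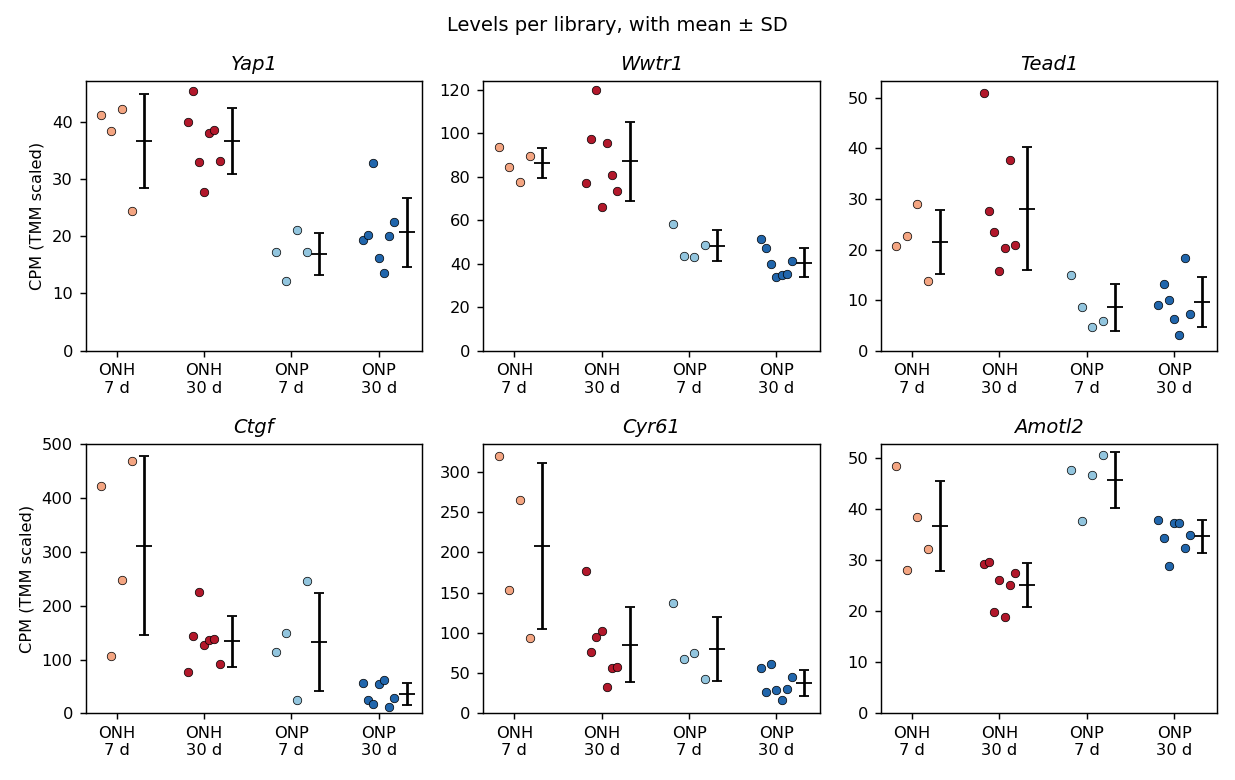
Levels of 6 genes in each library, in CPM after TMM scaling on a linear axis from 0, for ONH and ONP at 7 and 30 days (n = 4, 7, 4 and 7), with the mean and SD as a bar to the right of the points. Wwtr1 does not overlap between regions at either time and Yap1 does not at 7 days, Tead1 has higher means in the ONH with overlapping ranges, and Ctgf and Cyr61 have lower means at 30 than at 7 days in both regions, with a wide spread at 7 days.

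For 30 against 7 days the log2FC of Yap1 was -0.03 (95% CI -0.42 to 0.37, adjusted p = 0.958 with edgeR) in the ONH and 0.25 (95% CI -0.22 to 0.73, adjusted p = 0.453) in the ONP. For Wwtr1 it was -0.01 (95% CI -0.37 to 0.35, adjusted p = 0.983) in the ONH and -0.28 (95% CI -0.57 to 0.01, adjusted p = 0.166) in the ONP. In order of mean level Wwtr1 ran from ONH at 30 days through ONH at 7 days and ONP at 7 days to ONP at 30 days, and Yap1 from ONH at 7 days through ONH at 30 days and ONP at 30 days to ONP at 7 days. In each order the step from the ONH to the ONP passed the test above, and the steps within a region did not.

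The oligodendrocyte marker sum moved with the coactivators in the opposite direction. Across the 22 libraries, on log2 scales, Pearson's r with that sum was -0.878 for Yap1, -0.754 for Wwtr1 and -0.817 for Tead1. With the group means removed r was -0.627, -0.49 and -0.595. Other marker sums also correlated with the coactivators. For Yap1, with group means removed, r was -0.703 with fibroblast, -0.527 with photoreceptor, -0.518 with endothelial and 0.528 with astrocyte markers. For Wwtr1 the fibroblast value was 0.031 and the astrocyte value 0.512. The 6 microglia and macrophage markers summed to 75.7 to 1490 CPM in the ONH and 136 to 1840 CPM in the ONP. With group means removed r with that sum was -0.481 for Yap1, -0.385 for Wwtr1 and -0.574 for Tead1. Over all libraries r of Wwtr1 was 0.881 with pigment cell and 0.829 with mural cell markers. With group means removed these 2 values were -0.02 and 0.38. The points share library, depth and scaling, and the part of oligodendrocyte RNA in the regional differences was not tested. The summed astrocyte markers overlapped between all 4 groups, and of these 9 markers 1 was called higher and 3 lower in the ONH at 30 days. Of the 5 fibroblast markers 1, Col1a2, was called higher in the ONH at each time and 0 lower. The median log2FC of these 5 was 0.18 at 30 days and 1.04 at 7 days. Markers of cells that border the nerve head were far higher in the ONH. The 5 pigment cell markers summed to 67.7 to 819 CPM in the ONH and 3.46 to 8.15 CPM in the ONP, and all 5 were called higher in the ONH at both times (median log2FC 5.50 at 30 days and 6.22 at 7 days). The 5 photoreceptor markers summed to 77.9 to 5150 CPM in the ONH and 2.23 to 117 CPM in the ONP, with 5 of 5 called higher at 30 days and 4 of 5 at 7 days (median log2FC 5.35 and 4.75). The part of these cells in the regional differences was not tested.

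TAZ and YAP are close relatives with overlapping roles, and their balance was compared within libraries, where scaling between libraries drops out. Per kilobase of the longest coding transcript, Wwtr1 exceeded Yap1 in every library, by 1.08 to 3.25 times with a median of 2.0. The size of this factor depends on the length used. With the length of all exons joined, the means were 13.6 CPM per kilobase for Wwtr1 and 3.02 for Yap1, beside 13.9 and 6.70. The mean log2 ratio of Wwtr1 to Yap1 counts was 1.27 ± 0.42 (SD, n = 4) in ONH at 7 days, 1.24 ± 0.30 (n = 7) in ONH at 30 days, 1.53 ± 0.36 (n = 4) in ONP at 7 days and 1.01 ± 0.39 (n = 7) in ONP at 30 days. The difference between times in the ONP was -0.52 on the log2 scale (p = 0.0576 by a two-sided exact permutation test, and p = 0.23 after adjustment for 4 comparisons). The other 3 comparisons differed by -0.26 to 0.24 (exact permutation p = 0.246 to 0.912). No shift in the balance was detected at this number of libraries.

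Of the TEAD genes Tead1 had the largest regional difference that was called, at both times, and Tead2 was called at 30 days. Tead1 (ENSMUSG00000055320, chr7:112679318-112906807) stood at 20.6, 22.6, 29.1 and 13.7 CPM in ONH at 7 days and at 15.0, 8.72, 4.60 and 5.96 CPM in ONP. At 30 days the lowest, median and highest values were 15.7, 23.4 and 50.9 CPM in ONH and 3.07, 9.06 and 18.4 CPM in ONP. The means were 2.51 times as high in ONH as in ONP at 7 days and 2.92 times as high at 30 days, although the ranges overlapped at both times. The log2FC was 1.53 ± 0.34 at 30 days (95% CI 0.82 to 2.25, adjusted p = 0.00196 with edgeR) and 1.35 ± 0.39 at 7 days (95% CI 0.49 to 2.22, adjusted p = 0.0452 with edgeR). The call at 7 days was lost when any of ONH libraries 1, 3 and 5 or ONP libraries 2, 5 and 6 was left out (adjusted p = 0.0741 to 0.133), with log2FC from 1.14 to 1.36 in those fits. Between times its log2FC was 0.36 in the ONH (95% CI -0.30 to 1.02, adjusted p = 0.621) and 0.14 in the ONP (95% CI -0.80 to 1.08, adjusted p = 0.853).

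Tead2 (ENSMUSG00000030796, chr7:45215753-45233644), the family member best known from embryonic tissue, was at 1.14 to 6.34 CPM. It was higher in the ONH at 30 days, at 2.74 to 5.48 CPM against 1.14 to 3.64 CPM (log2FC 0.86 ± 0.28, adjusted p = 0.0211 with edgeR). That call was lost without ONH library 6 (log2FC 0.74, adjusted p = 0.0561) and with no filter on low counts (log2FC 0.83, adjusted p = 0.0603). At 7 days the difference was 0.84 ± 0.49 (adjusted p = 0.28).
Tead3 (ENSMUSG00000002249, chr17:28331671-28350817) was at 0.731 to 2.91 CPM and was not called in any comparison, its largest difference being 0.59 ± 0.27 between regions at 30 days (adjusted p = 0.0871). With at least 10 counts required in every library that difference was called (adjusted p = 0.0393).
Tead4 (ENSMUSG00000030353, chr6:128224288-128300823) went the other way in its means, with 0.334 ± 0.425 and 0.301 ± 0.342 CPM (SD) in ONH at 7 and 30 days and 1.05 ± 0.71 and 0.613 ± 0.361 CPM in ONP. It was at or under the level of 3 counts in 2 of 4 and 5 of 7 ONH libraries and above it in every ONP library. The log2FC of ONH over ONP was -0.98 ± 0.60 at 30 days (adjusted p = 0.206 with edgeR) and -1.65 ± 1.18 at 7 days (adjusted p = 0.387). Without ONH library 2 at 30 days, the highest of its group at 0.993 CPM, the difference at 30 days was -1.66 (adjusted p = 0.0291). The 31-base words of Tead3 and Tead4 shared with any other gene were 1.02% and 0.796% of the total, so little of their counts could pass between the family members.

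Expressed as shares of the summed TEAD level per kilobase, Tead1 held the largest share in 16 of 22 libraries. Its mean share was 49.0% ± 11.6 (SD, n = 4) in ONH at 7 days, 58.6% ± 10.4 (n = 7) in ONH at 30 days, 32.9% ± 14.5 (n = 4) in ONP at 7 days and 42.2% ± 15.2 (n = 7) in ONP at 30 days. Tead4 averaged 2.22% and 2.13% in the ONH and 12.7% and 9.47% in the ONP. The ranges of the Tead1 share overlapped between all groups.

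**Figure D2:**
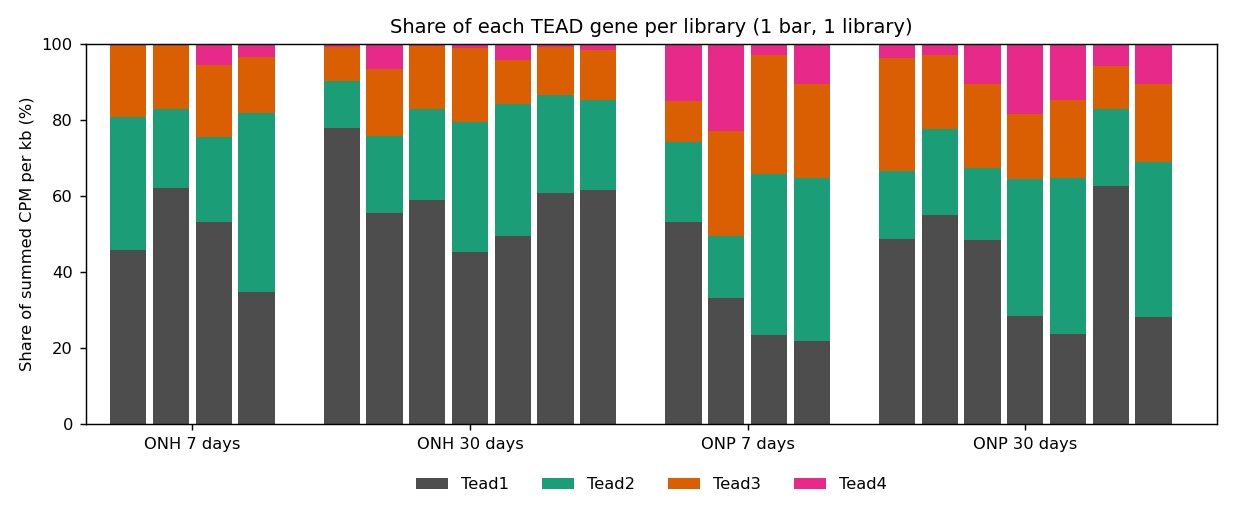
Share of Tead1, Tead2, Tead3 and Tead4 in their summed CPM per kilobase, in percent, with 1 stacked bar for each library, grouped as ONH and ONP at 7 and 30 days. Tead1 is the largest block in 16 of 22 bars, and Tead4 is a thin block in the ONH and a wider block in most ONP bars.

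The secreted matricellular proteins of the CCN family, Ctgf and Cyr61, had larger differences than Amotl2, the other target of the 10 genes that was tested, both between times and between regions. Ctgf (ENSMUSG00000019997, chr10:24595442-24598683) stood at 423.3, 107.6, 247.5 and 469.0 CPM in ONH libraries 1, 3, 5 and 6 at 7 days. At 30 days in the ONH its lowest, median and highest values were 76.7, 136.8 and 225.8 CPM. The groups overlapped through ONH library 3 at 7 days, the lowest of the 4. In the ONP it stood at 113, 149, 24.8 and 246 CPM in libraries 1, 2, 5 and 6 at 7 days, and from 12.4 over 27.99 to 61.7 CPM at 30 days. Library 5 at 7 days lay inside the range of the 30-day libraries and the other 3 lay above it.

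The fall of Ctgf from 7 to 30 days in the ONP was a log2FC of -1.89 ± 0.53 (95% CI -3.03 to -0.75, edgeR adjusted p = 0.0288), and its mean at 7 days was 3.64 times that at 30 days. In the ONH the log2FC was -1.24 ± 0.35 (95% CI -1.99 to -0.49, unadjusted p = 0.00328, adjusted p = 0.189), which edgeR did not call and DESeq2 did (adjusted p = 0.0384). The difference between the changes in the 2 regions was -0.65 (95% CI -2.06 to 0.77, adjusted p = 0.769 with edgeR), so no difference in the change was shown. The ONP call was lost without ONP library 1, 2 or 6 at 7 days or library 2 or 3 at 30 days (adjusted p = 0.0505 to 0.125), with a log2FC of -1.39 without library 6, and with voom (adjusted p = 0.0596). Between regions Ctgf was higher in the ONH at 30 days with no overlap, 3.67 times in the means (log2FC 1.87 ± 0.34, 95% CI 1.15 to 2.602, adjusted p = 0.000503 with edgeR). At 7 days the difference was 1.24 ± 0.60 (95% CI -0.07 to 2.56, adjusted p = 0.197).
An antisense gene, Gm15270 (chr10:24549441-24597108), covers part of Ctgf and shares 19.5% of its 31-base words. It was assigned 0 to 2.0 CPM, at most 0.807% of the Ctgf level in any library, and the counting was not stated to use strand, so reads of the pair cannot be told apart.

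Cyr61 (ENSMUSG00000028195, chr3:145646976-145649981), a gene that serum and growth factors induce within minutes as well as a YAP target, stood at 319.5, 153.2, 264.7 and 93.7 CPM in ONH libraries 1, 3, 5 and 6 at 7 days and from 32.6 over 76.4 to 176.6 CPM at 30 days. In the ONP it stood at 136.5, 67.0, 74.6 and 42.4 CPM at 7 days and from 17.1 over 29.9 to 61.3 CPM at 30 days. The library with the most Ctgf in each region at 7 days, library 6, had the least Cyr61 of its group. In the ONP Cyr61 fell by 1.12 ± 0.35 on the log2 scale from 7 to 30 days (95% CI -1.88 to -0.35, adjusted p = 0.0467 with edgeR). This call was lost without ONP library 1, 2 or 5 at 7 days or library 2, 4, 5, 6 or 7 at 30 days (adjusted p = 0.0562 to 0.199), and the log2FC was -0.70 without library 1 at 7 days. It was also lost with RLE factors, library size only, no filter on low counts and all 4 groups in a single fit (adjusted p = 0.0524 to 0.1035). In the ONH the log2FC was -1.31 ± 0.40 (95% CI -2.17 to -0.46, unadjusted p = 0.0055, adjusted p = 0.208). Between regions the log2FC was 1.17 ± 0.34 at 30 days (95% CI 0.44 to 1.89, adjusted p = 0.0122) and 1.397 ± 0.42 at 7 days (95% CI 0.47 to 2.32, adjusted p = 0.0516). The value at 7 days passed the threshold without ONH library 6 (adjusted p = 0.0169) or ONP library 1 (adjusted p = 0.0296), and in 6 of 9 other settings, DESeq2 among them (adjusted p = 0.0104 to 0.122 over the 9).

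Amotl2 encodes an angiomotin, a junction protein that binds YAP and restrains it and is itself induced by YAP. Its regional order was the reverse of that of Ctgf and Cyr61. Amotl2 (ENSMUSG00000032531, chr9:102716672-102733418) stood at 48.4, 28.1, 38.5 and 32.2 CPM in ONH at 7 days and at 47.7, 37.8, 46.7 and 50.7 CPM in ONP. At 30 days its lowest, median and highest values were 18.9, 26.1 and 29.7 CPM in ONH and 28.8, 35.0 and 37.9 CPM in ONP. At 30 days it was lower in the ONH (log2FC -0.47 ± 0.12, 95% CI -0.72 to -0.21, adjusted p = 0.00554 with edgeR), with an overlap of ONP library 3 with the higher ONH libraries. At 7 days the difference was -0.29 ± 0.21 (adjusted p = 0.385). It fell in the ONP by 0.43 ± 0.11 on the log2 scale from 7 to 30 days (95% CI -0.66 to -0.19, adjusted p = 0.0193 with edgeR), a call lost without ONP library 1 or 6 at 7 days (adjusted p = 0.058 and 0.0823) and with library size only, no filter or all 4 groups in a single fit (adjusted p = 0.0517 to 0.112). In the ONH the log2FC was -0.57 ± 0.19 (unadjusted p = 0.0099, adjusted p = 0.24).

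Between 7 and 30 days edgeR called 3 of 9 tested members lower in the ONP (Ctgf, Cyr61 and Amotl2) and 0 higher, where it called 9.21% of all genes tested lower and 17% in either direction. In the ONH it called 0 of 8 tested members and 0% of all genes tested. There 3 of the 8, the same targets, had an unadjusted p under 0.05, all 3 lower at 30 days, beside 6.8% of all genes tested, and DESeq2 called 1 member (Ctgf) and 2.57% of genes. No member was called for a difference between the regions in the change over time (0 of 9 with edgeR, 0 of 9 with an unadjusted p under 0.05, 0 with DESeq2, beside 0.543%, 12.6% and 2.28% of all genes tested). These comparisons share libraries, so that an ONP library at 7 days enters both its time and its region comparison.

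**Figure D3:**
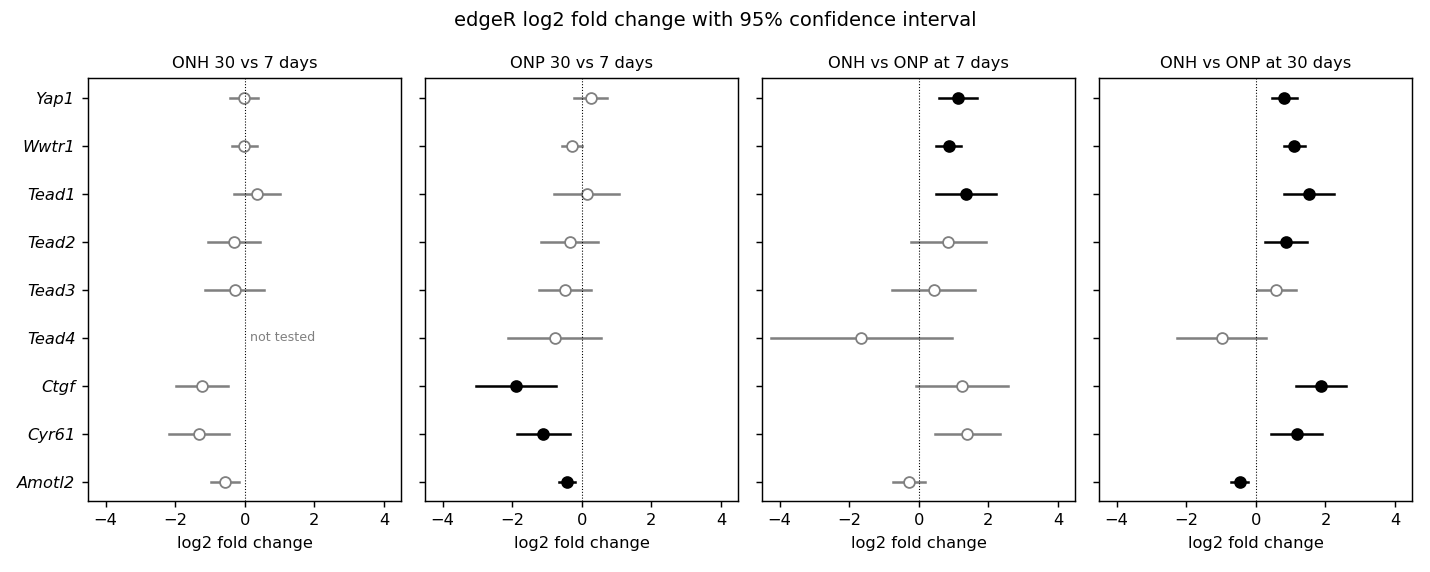
Log2 fold change of 9 genes with 95% confidence interval from the edgeR fits of 4 comparisons, the group named before vs minus the group after it, filled where the adjusted p was under 0.05. Points to the right of 0 in the region panels are higher in the ONH, where Yap1, Wwtr1 and Tead1 are filled at both times, and Ctgf, Cyr61 and Amotl2 lie left of 0 in both time panels, filled in the ONP panel.

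Among the gene lists compared, the list with the highest r differed between Ctgf and Cyr61. Pearson's r of log2 values between Ctgf and the summed fibroblast markers (Col1a1, Col1a2, Col3a1, Dcn and Lum) was 0.923 over the 22 libraries and 0.832 after the group means were removed. For Cyr61 the same values were 0.421 and -0.413. The sum of 12 immediate early genes (among them Fos, Jun, Egr1 and Dusp1, which rise quickly after cells are stimulated or handled) gave the opposite picture, with r of 0.946 and 0.862 for Cyr61 and 0.536 and -0.239 for Ctgf. Other lists correlated as well. For Ctgf r was 0.737 with mural cell and 0.704 with endothelial markers, and 0.384 and 0.503 with group means removed. For Cyr61 these values were 0.695 and 0.331, and 0.266 and -0.33 with group means removed. With the sum of 18 other YAP and TAZ target genes r was 0.5 for Ctgf and 0.67 for Cyr61. With group means removed it was -0.092 and 0.495. Between Ctgf and Cyr61 themselves r was 0.54 over all libraries and -0.201 with group means removed. All points share depth and scaling, and these values are descriptions.
The 3 genes most like Ctgf over all libraries, of 14231 with a mean of at least 1 CPM, were Akap12 (r = 0.917), Pde4d (0.894) and the collagen gene Col6a1 (0.887). Those most like Cyr61 were Dusp1 (0.946), Jun (0.919) and Adm (0.829), and with group means removed Dusp1 (0.856) and Jun (0.817) still led. The lists moved between groups as well. The immediate early gene sum ran from 702 to 1420 CPM in ONH at 7 days, 526 to 939 CPM in ONH at 30 days, 529 to 902 CPM in ONP at 7 days and 376 to 585 CPM in ONP at 30 days. In the ONP 4 of its 11 tested genes fell from 7 to 30 days, beside 9.21% of all genes, Dusp1 (log2FC -1.11, adjusted p = 0.0059), Nr4a1 (-0.74, adjusted p = 0.0132), Jun (-0.64, adjusted p = 0.0255) and Btg2 (-0.49, adjusted p = 0.0457), and 0 of the 5 fibroblast markers did, with log2FC from -0.79 to -0.37. In the ONP 6 of 7 oligodendrocyte, 3 of 6 endothelial and 2 of 4 tested mural cell markers also fell, beside the same 9.21%, as did 1 marker each of surface epithelium, pigment cells and photoreceptors. In the ONH over time, where edgeR called 0% of all genes, all 5 fibroblast markers were lower at 30 days with an unadjusted p under 0.05, beside 6.8% of all genes, and with a median log2FC of -1.50, beside -0.02. The same held for 3 of 6 endothelial (median -1.80), 4 of 5 mural cell (-1.39) and 3 of 4 tested surface epithelial markers (-4.64), and for 2 of 5 pigment cell and 1 of 5 photoreceptor markers. Of the 11 tested immediate early genes, 5 were also lower in the ONH at 30 days with an unadjusted p under 0.05. All 11 had a negative log2FC there, with a median of -0.65. The part of these cell types in the changes of Ctgf and Cyr61 was not tested.

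**Figure D4:**
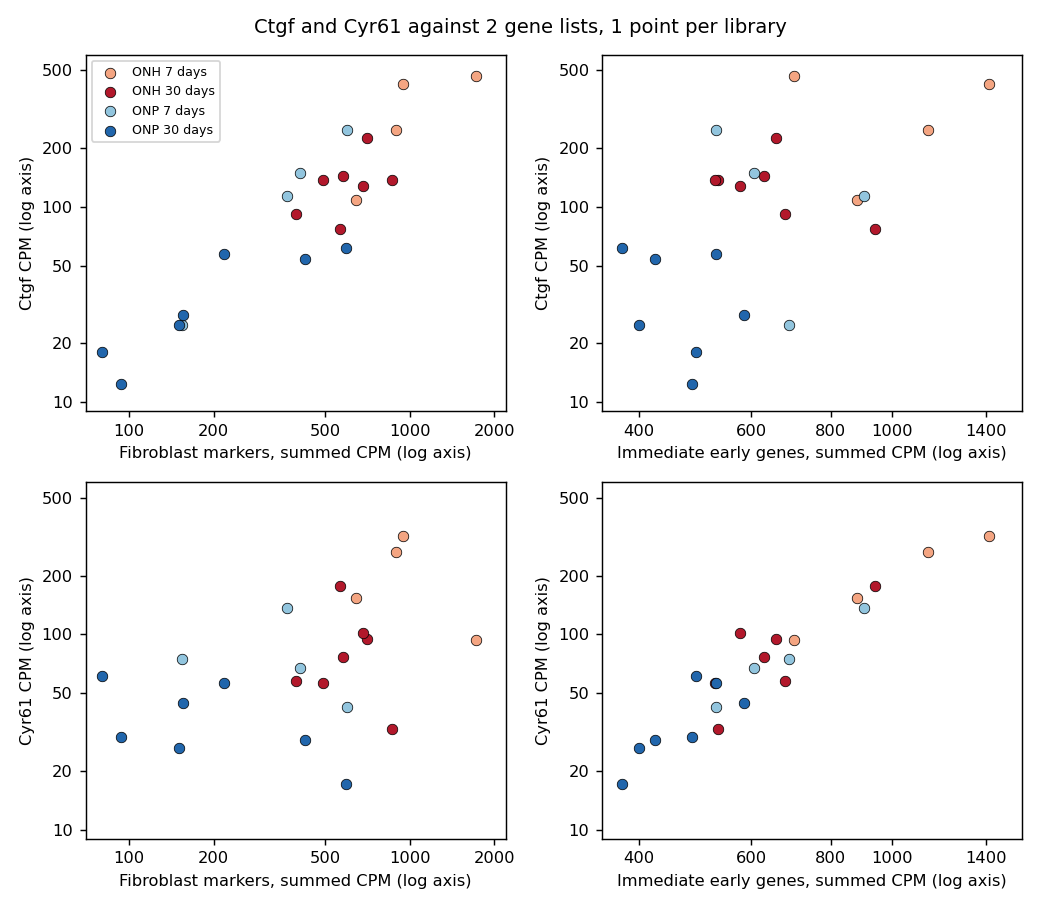
Ctgf (top) and Cyr61 (bottom) in CPM against the summed CPM of 5 fibroblast markers (left) and of 12 immediate early genes (right), all axes logarithmic, with 1 point for each of the 22 libraries coloured by group. Ctgf follows the fibroblast sum (r = 0.923) and Cyr61 follows the immediate early sum (r = 0.946), while the other 2 panels scatter more (r = 0.421 and 0.536).

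For the other members, the genes most like Wwtr1 over all libraries were Cntnap2 (r = 0.96), Fbln5 and Fam181b (both 0.949), and those most like Yap1 were Hbegf (0.919), Cbr1 (0.893) and 2210016F16Rik (0.886). Tead1 was most like Six3os1 (0.911), Hist2h3c2 and the Hippo activator Wwc1 (both 0.899), and Amotl2 most like Immt (0.841), Gars (0.835) and Zfp281 (0.824). Among the members, the highest r was 0.799 between Yap1 and Tead1, followed by 0.776 between Yap1 and Wwtr1. With group means removed these were 0.437 and 0.218. The coactivators and the target genes differed in sign. For Yap1 r was 0.307 with Ctgf, 0.564 with Cyr61 and -0.509 with Amotl2, and -0.511, 0.461 and 0.08 with group means removed. For Wwtr1 r was 0.722, 0.606 and -0.489 with the same genes, and 0.313, 0.145 and -0.158 with group means removed.

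The rest of the pathway was followed in 3 lists with 48 genes between them. Of 17 genes of the Hippo kinase core and its activators, which oppose YAP and TAZ, edgeR called 0 in the ONH over time and 1 in the ONP (17% of all genes tested), Fat4, an atypical cadherin, which rose (log2FC 2.38 ± 0.75, adjusted p = 0.0467). Between regions at 30 days 3 of 17 were higher and 4 lower in the ONH, a share like the 41.8% called among all genes tested, so that the following values describe single genes. Lats1 (log2FC 0.51, adjusted p = 0.0415) and Taok1 (0.53, adjusted p = 0.00154) were higher in the ONH, while Lats2 (-0.65, adjusted p = 0.00305), Taok2 (-0.38, adjusted p = 0.0209) and Stk4 (-0.39, adjusted p = 0.0381) were lower. The scaffold Wwc1, known as KIBRA, was higher (0.99, adjusted p = 0.000336), and Nf2, which encodes the activator merlin, was lower (-0.37, adjusted p = 0.0116). The median log2FC of the 17 was 0.08, beside -0.01 over all genes. At 7 days 2 of 16 tested were called, beside 13.2% of all genes, both higher in the ONH, Fat4 (3.02, adjusted p = 0.0195) and Wwc1 (0.90, adjusted p = 0.0411). Lats2 is also a YAP target and counts in that list too.

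Of the 15 partners and inhibitors of YAP, TAZ and TEAD, 12 were tested in the ONP and between regions, and Vgll1 and Vgll2 were not in the count table. Over time in the ONP 4 of the 12 fell, where 9.21% of all genes did, among them the tight junction scaffold Tjp1 (log2FC -0.81, adjusted p = 0.0144), alpha-catenin Ctnna1 (-0.32, adjusted p = 0.0352) and the phosphatase Ptpn14 (-1.42, adjusted p = 0.0229), a YAP inhibitor and target. At 30 days 7 of 12 were higher and 2 lower in the ONH, beside 21.8% and 20% of all genes, with a median of 0.35 beside -0.01. Among those with the smallest adjusted p were Amotl1 (1.08, adjusted p = 2.48e-05), Tjp1 (1.06, adjusted p = 0.00168), the LIM proteins Wtip (1.395, adjusted p = 0.0026) and Limd1 (-0.33, adjusted p = 0.022), and Ptpn14 (1.15, adjusted p = 0.00651). Amotl1 was thus higher and its relative Amotl2 lower in the ONH. At 7 days 1 of 12 was called higher, Ajuba (0.89, adjusted p = 0.0459), and 1 lower, beside 13.2% of all genes called in either direction. In the ONH over time 0 of 13 were called, and the smallest adjusted p was that of Ptpn14 (log2FC -0.81, adjusted p = 0.39).

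Of 18 other published target genes, all were tested. In the ONP 2 rose over time, Ccdc80 (0.85, adjusted p = 0.0233) and Gadd45a (0.52, adjusted p = 0.0269), and 4 fell, Ptpn14, Dock5 (-0.81, adjusted p = 0.0294), Crim1 (-0.77, adjusted p = 0.0355) and Nt5e (-0.84, adjusted p = 0.0416). All genes tested were called at 17% there, and the median of the 18 was -0.03, beside -0.01 over all genes. In the ONH over time 0 of 18 were called and the median was -0.43, beside -0.02 over all genes, with 15 of 18 lower at 30 days. The smallest adjusted p was that of Igfbp3, which binds insulin-like growth factors (log2FC -1.95, adjusted p = 0.189). Between regions at 30 days 6 of 18 were higher and 4 lower in the ONH, beside 21.8% and 20% of all genes. The cytokine gene Tgfb2 was higher at both times (1.51, adjusted p = 4.78e-05 at 30 days and 0.99, adjusted p = 0.00985 at 7 days), and at 7 days it was the only target of the 18 called, beside 13.2% of all genes. Of the others, Rbms3 (1.55, adjusted p = 0.00124), Gadd45a (0.56, adjusted p = 0.0058) and Ptpn14 were higher and Ccdc80 (-1.54, adjusted p = 0.00016) and Lats2 lower in the ONH at 30 days.

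Taken over the 3 lists, 3 genes were called higher and 7 lower of 45 tested over time in the ONP, 15 higher and 9 lower of 45 between regions at 30 days and 4 higher and 1 lower of 44 at 7 days. Over all genes tested the shares called were 17%, 41.8% and 13.2%, so these counts lay near the background. In the ONH over time 0 of 46 were called, with 2 higher and 3 lower at an unadjusted p under 0.05, and DESeq2 called 1. For the difference in change between regions 0 of 46 were called, with 4 higher and 4 lower at an unadjusted p under 0.05, and DESeq2 called 1.

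Serum response factor (SRF) and its coactivators MRTF answer actin tension in parallel to YAP, and 10 of their genes were followed for comparison. Between regions 6 of 9 tested were higher in the ONH at each time and 0 lower, where 21.8% of all genes were called higher at 30 days and 6.34% at 7 days, with medians of 0.75 at 30 days and 1.26 at 7 days beside -0.01 and 0.07 over all genes. Cnn1 (log2FC 3.51, adjusted p = 0.000147 at 30 days and 5.40, adjusted p = 0.000224 at 7 days), Acta2 (2.24, adjusted p = 9.09e-05 and 3.01, adjusted p = 0.00721) and Tagln (1.62, adjusted p = 0.000683 and 2.64, adjusted p = 0.000296) led. All 3 are genes of the smooth muscle contractile apparatus, and the mural cell marker list, which holds Acta2 and Tagln too, summed to 182 to 849 CPM in the ONH and 77.2 to 193 CPM in the ONP. The mural markers not shared with the SRF list were mixed. At 30 days Rgs5 was higher in the ONH (1.88, adjusted p = 0.000435) and Pdgfrb lower (-1.13, adjusted p = 0.00034). At 7 days neither was called (adjusted p = 0.133 and 0.968). Over time in the ONP 2 of 10 tested SRF and MRTF genes fell, beside 9.21% of all genes, Vcl (-0.78, adjusted p = 0.0273) and Acta2 (-1.18, adjusted p = 0.0476). The median there was -0.14. In the ONH, where edgeR called 0% of all genes, 8 of 9 tested had a negative log2FC over time. Of these, 5 had an unadjusted p under 0.05, beside 6.8% of all genes, and the median was -0.71. The part of mural cells in these values was not tested.

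**Figure D5:**
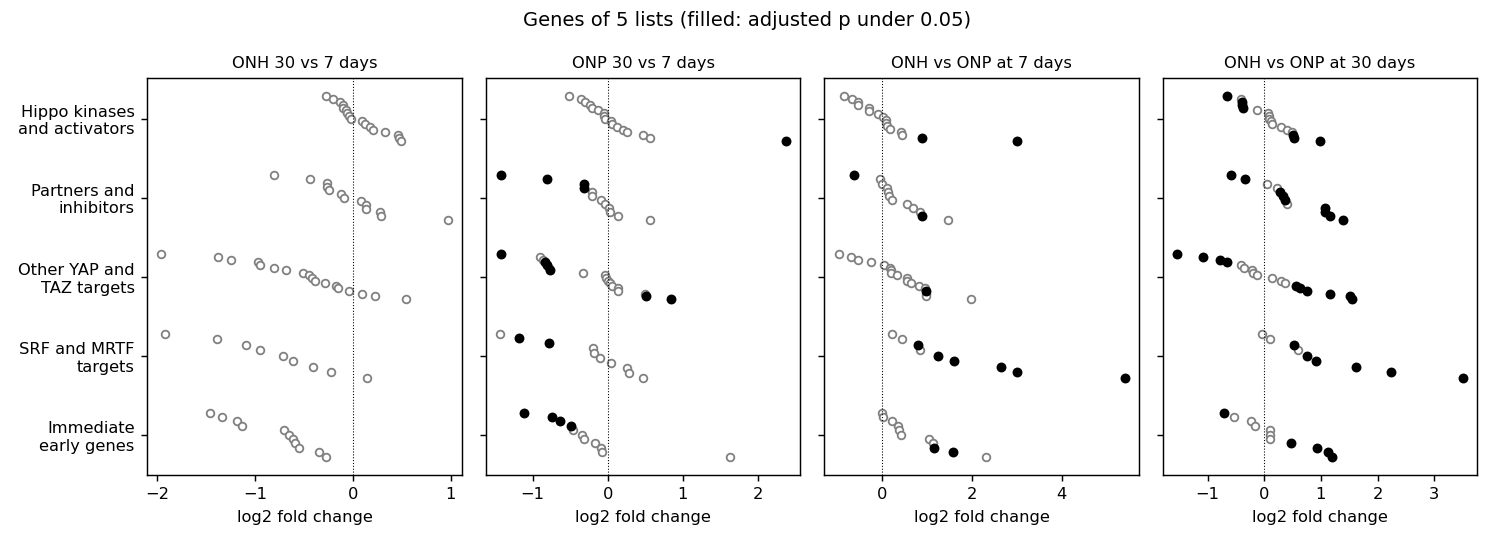
Log2 fold change from edgeR of the tested genes of 5 lists in 4 comparisons, each point 1 gene and filled where the adjusted p was under 0.05. No point is filled for the ONH over time, and all filled SRF and MRTF points between regions lie to the right of 0, higher in the ONH.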

How the data were processed

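Per the labels, RNA on HA-tagged ribosomes was pulled down, copied with a Smart-Seq kit for small inputs, from polyadenylated RNA, and sequenced. According to the methods and the submitters' processing notes, the authors aligned reads to mm10 with STAR 2.6.1d for quality checks, quantified transcripts with Salmon 0.14.2 and summed them per gene. The deposited values are expected counts, given as whole numbers, and a deposited table of log2 variance-stabilized values was used only for an alternative of the Wwtr1 to Yap1 ratio. Salmon splits reads between transcripts that share sequence, so overlapping genes share an error.

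From the counts, CPM was computed with TMM factors of edgeR 4.0.16, and each comparison was fitted on its 2 groups (all 4 for the interaction) with the edgeR quasi-likelihood test after its filter on low counts (filterByExpr), p-values adjusted by Benjamini-Hochberg across the genes of that fit and a call at adjusted p under 0.05. SE is the log2FC divided by the square root of F. DESeq2 1.42.0 and limma 3.58.1 (voom) were alternatives. The fits were tested on simulated counts. The Wwtr1 to Yap1 ratio added 0.5 to each count.

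The rule for names took all 10 members, at most 6 called genes per list and comparison, and the 3 genes most like a member by Pearson's r of log2 CPM (prior count 2). Lats1 was named beyond the 6 of its list between regions at 30 days. The values of 1 gene of the partner list are not reported here, although it is part of the counts. Gm15270, Gh and Krt5 were named after their values were seen. The members and lists were chosen with earlier results of these data known. Coordinates are those of GENCODE M21 (GRCm38), in which 29322 of 29367 gene identifiers were found.

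At 7 days the library numbers are those of the count columns, which differ from the replicate numbers in the labels, so these libraries were assigned to groups only. Per the methods ONH and ONP were taken from the same mice, but which libraries share mice is not given in the sources used here, and a fit with the replicate number at 30 days as a block was an alternative. A library pools 4 mice, and p-values measure the spread between such pools. No 2 libraries of a group agreed within sampling noise. Limits from 3 counts cover counting error only.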

Additional observations from a re-analysis of the deposited data

Results flagged for a closer look

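Over 39 combinations of a gene and a group, 2 had a library far from the others of its group by Dixon's criterion, and both concern Ankrd1. The chance rate of that criterion, 1 in 20, is for continuous values and cannot be applied to counts this near 0. In ONH at 7 days library 3 was at 0.0598 CPM (2 counts) and the other 3 were at 0, where any value above 0 would be marked. In ONH at 30 days library 4 was at 0.215 CPM (4 counts) and the next highest at 0.054 CPM. These counts lie near the limit of 3 counts.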

How the results depend on the processing

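Under the settings other than leaving a library out, 366 of 392 log2FC of single members kept their direction and their side of the threshold, 10 lost and 8 gained the call, and 8 turned direction. The fall in the ONP over time was the result most open to the settings. Its count of called members was 1 in place of 3 with scaling by library size only, with no filter on low counts and with all 4 groups in a single fit, and the count of pathway genes was 6, 5 and 4 in these settings in place of 10. The cause was not tested. Scaling by library size only raised the median log2FC of all genes by 0.114 in the ONP over time, by 0.113 between regions at 7 days and by 0.152 in the interaction. The share of calls that were higher moved from 45.9% to 66.7%, from 48.2% to 62.4% and from 27.5% to 53.6%. With voom the fall of Ctgf in the ONP had adjusted p = 0.0596.

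DESeq2 called 1 member and 1 pathway gene in the ONH over time, 8 pathway genes between regions at 7 days in place of 5, and 1 in the interaction. Between regions at 7 days the count of pathway genes was 3 with no filter, 12 with all 4 groups in a fit and 3 without the ONH libraries that stand apart, and without those Tead1 had adjusted p = 0.0741. No other call of a member was lost without them. Direction turned for changes near 0, none of them called. In the ONH over time Wwtr1 was 0.014 with all 4 groups in a fit, and Yap1 0.061 and Wwtr1 0.077 without the ONH libraries that stand apart. In the interaction Tead1 was 0.11 with voom, Tead2 0.0033 with RLE factors, 0.12 with library size only and 0.0030 with at least 10 counts in every library, and Cyr61 -0.12 without the ONH libraries that stand apart.

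Leaving out each library in turn, the ONP count over time ran from 0 to 3 members (0 without library 1 at 7 days) and from 1 to 9 pathway genes. Between regions at 7 days pathway genes ran from 1 to 8, and in the interaction from 0 to 1. The ranges of the changes whose direction turned were -0.13 to 0.045 for Wwtr1 and -0.18 to 0.045 for Yap1 in the ONH over time, -0.10 to 0.58 for Tead1 in the ONP over time, -0.154 to 0.177 for the ratio of Wwtr1 to Yap1 in the ONH over time, and, in the interaction, -0.050 to 0.63 for Cyr61, -0.42 to 0.25 for Tead1, -0.22 to 0.31 for Tead2 and -1.90 to 0.037 for Tead4.

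At 30 days the deviations of ONH and ONP libraries with the same number correlated with r from 0.077 to 0.471, and 3 of 7 correlated best with their own number. With that number as a replicate block 7 members and 21 pathway genes were called, and no call of a member changed. The comparisons over time hold different mice, killed at 7 or at 30 days, so they have no pairs. At 7 days no paired analysis was possible because the numbers of the 7-day columns are not the replicate numbers of the labels. These columns were assigned to groups only. The paired fits planned for these comparisons were not run. In the interaction the block held the 30-day pairs. With the length of all exons joined, the Tead3 share averaged 10.8%, 8.7% and 12.4% in ONH at 7 and 30 days and in ONP at 30 days in place of 17.5%, 14.3% and 20.1%.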
